A study of Rattus norvegicus with 6 samples.

Results

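The genes described here mark the trophoblast lineage, the cells of the embryo that build the placenta, and were followed in rat metrial gland under low oxygen. They were 33 genes taken from a list of lineage regulators and trophoblast products. A gene was measured by the probe set that the platform annotation gives to it alone, and by the brightest of these over the 6 arrays where there were several. On the array 30 of the 33 had such a probe set. Esx1 and Syna had none, and Cited1 had only a probe set shared with a second gene, so no value is given for these 3. Of the 30, 23 passed a filter on low mean signal and were tested among 18625 probe sets, out of 31042 on the array. The genes and the lists used to sort them were chosen with earlier results of these data known. Counts and shares below therefore describe these genes and do not test them as a set.

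Tissue came from pregnant rats at gestation day 13.5. In the hypoxia group 3 samples came from animals kept at 10.5% oxygen over gestation days 6.5 to 13.5, and in the ambient group 3 samples came from animals kept at 21% oxygen. Total RNA was measured on an Affymetrix rat array with 1 channel, and the deposited values are log2 expression levels. Strain and age of the animals, and whether the samples of a group came from separate animals, are not stated in the labels. A p-value here therefore reflects the spread among the 6 arrays, part of which may be technical.

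The metrial gland lies in the mesometrial uterine wall, on the maternal side of the placenta. In the rat, trophoblast cells leave the placenta and enter it along the spiral arteries, so it holds maternal natural killer cells, decidual stroma and vessels together with invading cells of fetal origin. Trophoblast stem cells are kept by factors such as Cdx2, Elf5 and Tfap2c and by fibroblast growth factor signalling through Fgfr2. They give rise to giant cells and invasive cells, to the spongiotrophoblast of the junctional zone, and to the labyrinth, where exchange takes place. The genes were therefore sorted into stem and early regulators, giant cell and invasive genes, spongiotrophoblast and junctional genes, labyrinth genes, and adhesion genes of trophoblast epithelium. Many of these roles are known from the mouse, and several genes are also used by other cells of the gland.

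Of the 23 genes tested, 8 rose, 1 fell and 14 did not pass an adjusted p of 0.05 (limma, Benjamini-Hochberg over all 18625 probe sets). Of all these probe sets 5.99% passed, and 4422 had an unadjusted limma p under 0.05. Plac1, Tfap2c, Cdsn, Plet1, Cdh3, Fgfr2, Gjb5 and Ets2 rose, and Id2 fell. Over all probe sets tested, 4.02% were called higher and 1.97% lower in hypoxia. The calls were higher in 67.1% of cases over all probe sets, and in 55.4% after quantile normalization. The median difference of the 23 genes was 0.64 on the log2 scale, against 0.0034 over all probe sets tested. The 3 hypoxia values and the 3 ambient values did not overlap for 20 of the 23, with 18 higher and 2 lower in hypoxia, and among all probe sets tested 29.9% did not overlap, 15.8% higher and 14.1% lower. The filter acted on the mean of all 6 arrays, so Tfpi2 and Psg19, whose ambient means lay under the cutoff of 5.74, were tested only because of their hypoxia values. In bulk tissue, fewer cells of a type and less RNA per cell cannot be told apart.

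**Figure D1:**
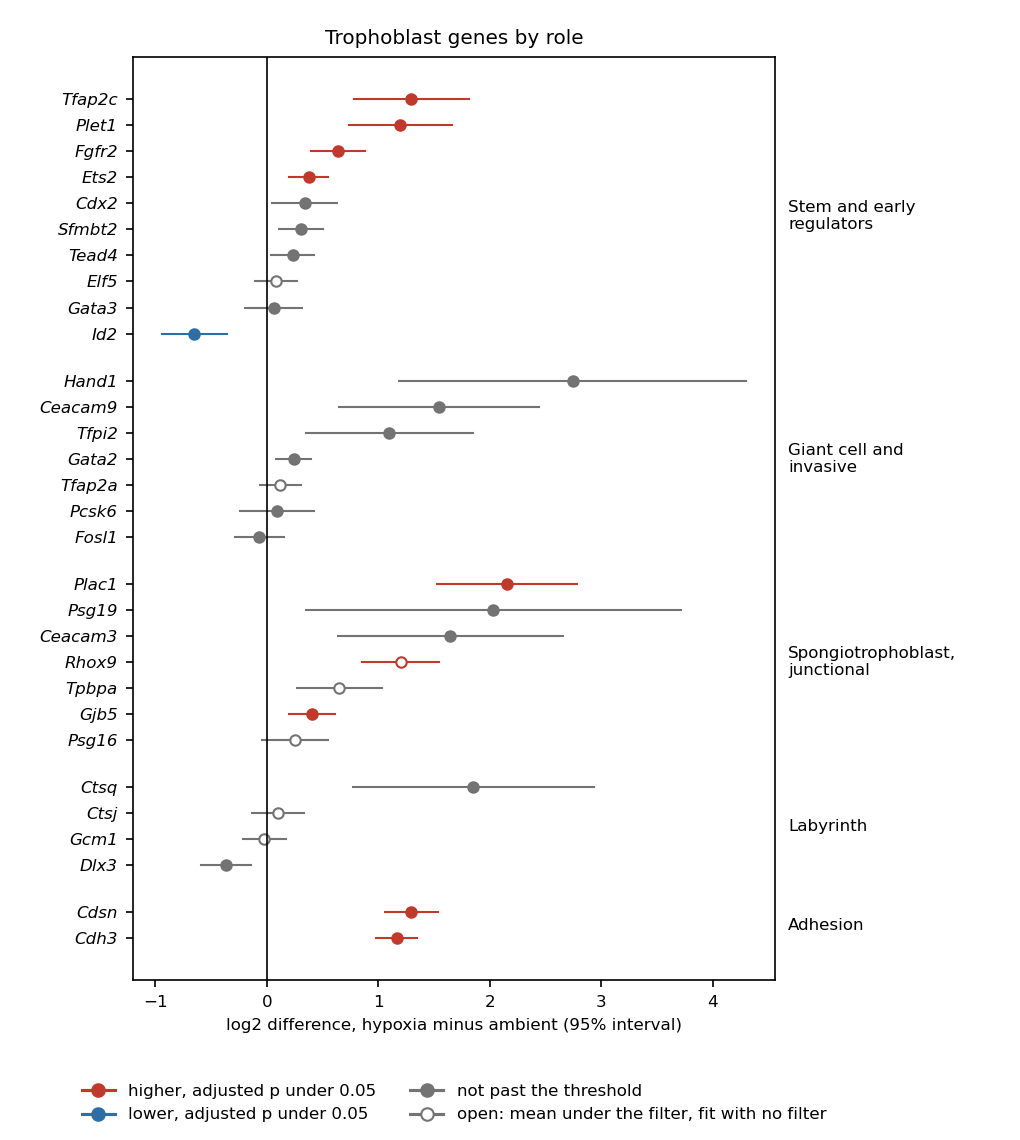
Log2 difference, hypoxia minus ambient (x axis), with 95% intervals for the 30 measured trophoblast genes, sorted by role; open circles are genes under the filter, fitted without it. Red marks genes called higher and blue the gene called lower at an adjusted p of 0.05; the widest intervals are those of Psg19 and Hand1, which did not pass.

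The arrays shared a common scale, with medians between 6.44 and 6.47, and 27 probe sets for bacterial transcripts, taken as the background level, reached at most 5.003. For RNA quality, the log2 gap between the 3' and 5' probe sets of beta-actin averaged 0.67 ± 0.097 in hypoxia and 0.50 ± 0.073 in ambient (SD, n = 3 each). A two-sided exact permutation test gave p = 0.1, and 3 arrays against 3 cannot go lower. For GAPDH the same gap averaged 0.0039 ± 0.049 in hypoxia and -0.033 ± 0.022 in ambient (SD, n = 3 each; exact permutation p = 0.2). Beside the counts of called markers, here and below, stand the shares over all probe sets tested, 4.02% called higher and 1.97% lower. Markers of metrial gland trophoblast, Prl5a1, Prl7b1, Krt7, Krt8, Krt18 and Cdkn1c, were present in both groups, and 5 of these 6 were called higher in hypoxia. Their summed linear signal was 12079 to 16768 over the hypoxia arrays and 2434 to 6354 over the ambient arrays. Natural killer markers, 6 tested, had 0 called higher and 3 lower, with sums of 36469 to 40357 in hypoxia and 44582 to 51018 in ambient. Endothelial markers, 5 tested, had 3 called higher and 0 lower, with sums of 6468 to 7123 in hypoxia and 5654 to 5885 in ambient. Smooth muscle markers, 5 tested, had 0 calls (1 at an unadjusted p under 0.05, Des, which is also 1 of the 6 decidual stroma markers), with sums of 26291 to 35015 in hypoxia and 26000 to 33016 in ambient. Red cell markers, 4 tested, had 3 called higher and 0 lower, with sums of 17536 to 22076 in hypoxia and 7243 to 10096 in ambient. Ahsp, 1 of these 3, had an ambient mean of 5.61, under the filter cutoff of 5.74, and was tested only because of its hypoxia values. The part of these cell types in the results below was not tested. Of the yolk sac markers, Afp and Apoa1 lay at or under the bacterial controls on all 6 arrays, with sums for the 5 markers of 412 to 451 in hypoxia and 457 to 628 in ambient and 0 calls among the 2 tested (0 at an unadjusted p under 0.05).

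Among the stem and early regulators, 9 of 10 were tested. Of these, 4 rose, 1 fell and 4 did not pass, while 4.02% of all probe sets tested were called higher and 1.97% lower. Tfap2c, which encodes the transcription factor AP-2 gamma needed to keep the trophoblast lineage, stood at 7.64, 7.94 and 7.96 on the hypoxia arrays, against 6.87, 6.79 and 5.99 on the ambient arrays. Every hypoxia value lay above every ambient value, and ambient replicate 3 was the lowest. Tfap2c rose 2.46-fold, by 1.30 on the log2 scale (SE 0.22, adjusted p = 0.0209), a call that was lost without hypoxia replicate 2 (adjusted p = 0.0636). Its relative Tfap2a, on the giant cell list, lay at bacterial control level on all arrays but hypoxia replicate 3, so no fold is given for it.

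Plet1, a surface protein of trophoblast progenitors in the mouse ectoplacental cone, was at 9.65, 9.55 and 9.95 in hypoxia and at 8.99, 8.19 and 8.36 in ambient. The groups did not overlap. Plet1 rose 2.30-fold, by 1.20 (SE 0.20, adjusted p = 0.0185). It had 3 probe sets, and all 3 were called, with rises of 1.20, 1.12 and 0.99. The call at the brightest was lost without hypoxia replicate 1, ambient replicate 2 or ambient replicate 3 (adjusted p up to 0.0782).

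Fgfr2, the receptor through which fibroblast growth factor keeps trophoblast stem cells dividing, stood at 8.93, 9.05 and 8.89 in hypoxia, against 8.52, 8.15 and 8.28 in ambient. It rose 1.56-fold, by 0.64 (SE 0.10, adjusted p = 0.0161). The array carries 5 probe sets for Fgfr2, and they fell into 2 kinds. The brightest and a pair of others were called higher, by 0.64, 0.61 and 0.77. The remaining pair differed by -0.057 (adjusted p = 0.732) and by -0.020, the last under the filter (adjusted p without the filter 0.932). Both of that pair were dim, at means of 5.80 and 5.68 in hypoxia and 5.85 and 5.70 in ambient. Fgfr2 transcripts differ by alternative exons, and which of them each probe set reads was not tested. The call was lost without hypoxia replicate 2, ambient replicate 2 or ambient replicate 3 (adjusted p up to 0.0691).

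Ets2, a transcription factor required by mouse trophoblast stem cells, was at 9.79, 9.99 and 9.76 in hypoxia and at 9.44, 9.49 and 9.48 in ambient. Its rise was small, 0.38 (SE 0.08, adjusted p = 0.0323), and the ambient arrays lay within 0.042 of each other. The call was lost without any 1 array other than hypoxia replicate 3 (adjusted p up to 0.103).

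Id2 went the other way. It encodes an inhibitor of helix-loop-helix factors that is known from trophoblast progenitors, and it is also required by natural killer cells. Id2 had 12.19, 11.80 and 12.35 in hypoxia, against 12.83, 12.70 and 12.76 in ambient. Neither group reached into the other, and hypoxia replicate 2 was the lowest. Id2 fell by 0.65 on the log2 scale (SE 0.13, adjusted p = 0.0309). A second, dimmer probe set differed by -0.52 and did not pass (adjusted p = 0.325), and the mean of both did not pass (adjusted p = 0.0525). The call was also lost without hypoxia replicate 1 or any 1 ambient array (adjusted p up to 0.102). Of the 6 natural killer markers, Nkg7 (-0.46), Il2rb (-0.60) and Cst7 (-0.73) were called lower. The differences of Prf1 (-0.27), Gzmb (-0.20) and Klrd1 (0.52) did not pass (adjusted p = 0.107, 0.0825 and 0.192), and that of Klrd1 lay on the other side of 0. Their part in the Id2 result was not tested.

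The 4 stem and early regulators that were tested and did not pass were Cdx2, Tead4, Sfmbt2 and Gata3. Cdx2, the caudal homeobox factor of the early trophectoderm, was at 6.23 ± 0.22 in hypoxia and 5.89 ± 0.10 in ambient (SD, n = 3 each), so that they differed by 0.34 (95% interval 0.050 to 0.63, adjusted p = 0.153). The highest ambient array lay just under the lowest hypoxia array, both at about 5.98. Elf5, under the filter and so not tested, did not exceed the bacterial controls on any array. Tead4, which acts upstream of Cdx2 in the mouse embryo, differed by 0.23 (adjusted p = 0.14), and Sfmbt2, an imprinted Polycomb-related gene of mouse trophoblast, by 0.31 (adjusted p = 0.0755). At these probe sets, every hypoxia value lay above every ambient value. Of the further Tead4 probe sets, 1 differed by 0.022 with groups that overlapped (adjusted p = 0.896) and 1 by 0.37 (adjusted p = 0.0907), and the second Sfmbt2 probe set differed by 0.28 (adjusted p = 0.168). Gata3, which is shared with lymphoid cells, differed by 0.061 with a 95% interval from -0.20 to 0.32 (adjusted p = 0.782). A second Gata3 probe set lay on the other side of 0, at -0.13.

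**Figure D2:**
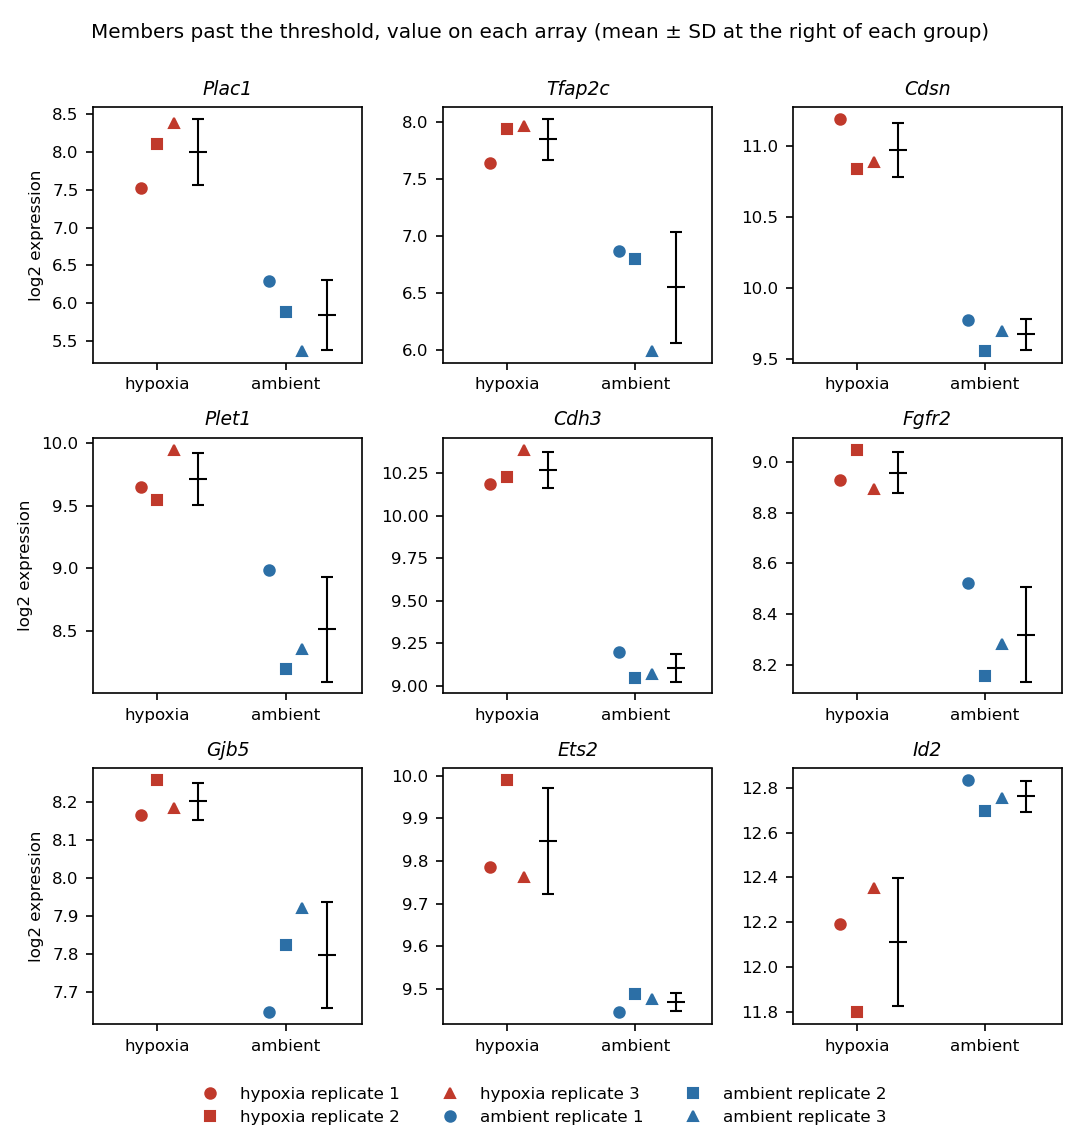
Log2 expression (y axis) on each of the 6 arrays for the 9 trophoblast genes past the threshold, hypoxia at the left and ambient at the right of each panel; the bar beside each group is its mean ± SD (n = 3), and each panel has its own y axis. The groups do not overlap in any panel, and Id2 is the gene that lies lower in hypoxia.

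Of 7 giant cell and invasive genes 6 were tested, and limma called 0 of them, with 4 at an unadjusted p under 0.05. Such a p was also reached by 4422 of all 18625 probe sets tested. Hand1, a helix-loop-helix factor that drives giant cell formation in the mouse, stood at 8.08, 7.34 and 10.10 in hypoxia, against 6.69, 5.36 and 5.24 in ambient. The groups did not overlap, but hypoxia replicate 3 stood far above all other arrays. The difference was 2.74 (SE 0.67, 95% interval 1.19 to 4.30) with an adjusted p of 0.054, and 1.95 without hypoxia replicate 3 (adjusted p = 0.0521). It was 3.32 and passed without hypoxia replicate 2. These are the values of the probe set with the higher mean. The other Hand1 probe set lay between 6.65 and 6.69 in hypoxia and between 6.66 and 6.86 in ambient, which is -0.065 apart (95% interval -0.26 to 0.13, adjusted p = 0.688). The direction for Hand1 thus rests on 1 of its 2 probe sets, and which transcript each reads was not tested.

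Ceacam9, a trophoblast member of the carcinoembryonic antigen family, was at 12.63, 12.86 and 13.11 in hypoxia and at 12.08, 11.59 and 10.31 in ambient. Ambient replicate 3 lay far under the other arrays of its group. The difference was 1.54 (SE 0.39, adjusted p = 0.0585). It was 1.03 without ambient replicate 3 and then passed (adjusted p = 0.049), and it was 1.92 and passed without ambient replicate 1 (adjusted p = 0.0395).

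Tfpi2, a Kunitz-type inhibitor of serine proteases that the placenta makes, had 6.82, 5.56 and 6.93 in hypoxia, against 5.49, 5.23 and 5.30 in ambient. On hypoxia replicate 2 it lay only just above the ambient arrays. The difference of 1.10 did not pass (adjusted p = 0.0897), and without hypoxia replicate 2 it was 1.54 and passed (adjusted p = 0.00345). Since its ambient mean of 5.34 lay under the filter cutoff of 5.74, Tfpi2 was tested only because of its hypoxia values.

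The remaining tested genes of this role had small differences. Gata2, which acts on placental hormone genes in giant cells and is also active in endothelium and decidua, differed by 0.24 with a 95% interval from 0.084 to 0.40 (adjusted p = 0.079). Fosl1, an AP-1 factor linked to invasion of rat trophoblast, differed by -0.065 with a 95% interval from -0.29 to 0.16 (adjusted p = 0.722). Pcsk6, a proprotein convertase that activates growth factors of the TGF-beta family, differed by 0.094 with a 95% interval from -0.24 to 0.43 (adjusted p = 0.735). The upper ends of these 3 intervals reach at most 0.43 on the log2 scale.

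**Figure D3:**
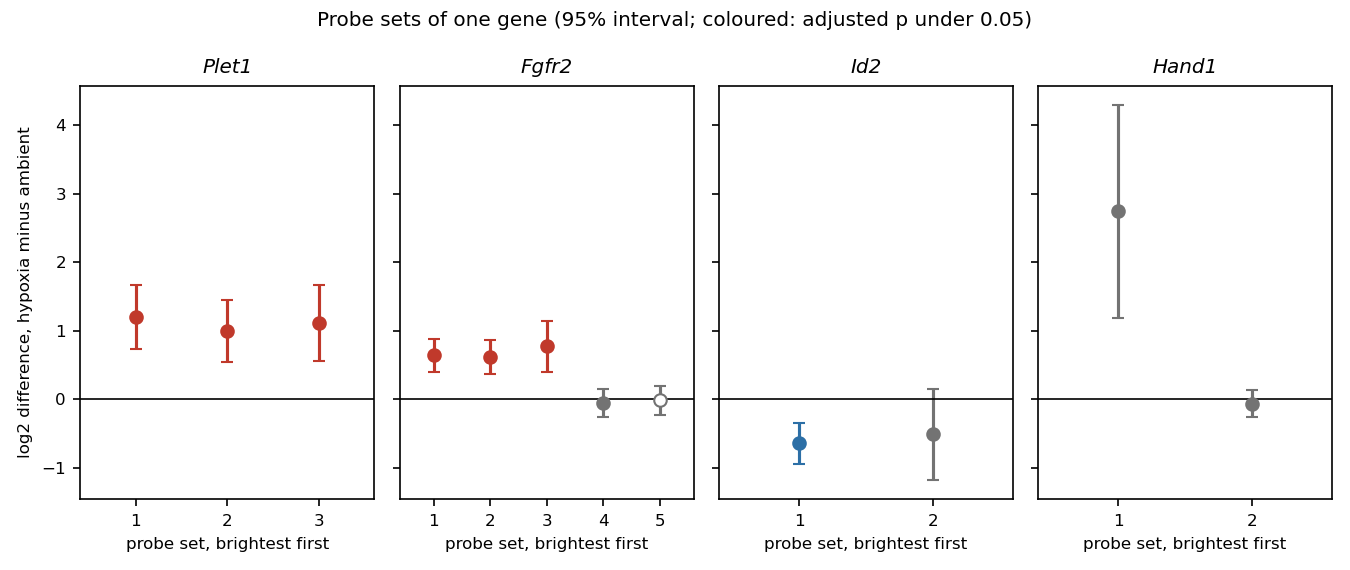
Log2 difference, hypoxia minus ambient (y axis), with 95% intervals for every probe set of Plet1, Fgfr2, Id2 and Hand1, ordered by brightness (x axis); red marks calls higher, blue the call lower, grey no call, and the open circle a probe set under the filter. All 3 Plet1 probe sets and 3 of the 5 for Fgfr2 were called higher, while the 2 Hand1 probe sets lay at 2.74 and -0.065.

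Spongiotrophoblast and junctional genes had 4 tested members of 8, and 2 of these rose, Plac1 and Gjb5. Among all probe sets tested 4.02% were called higher. Plac1, an X-linked gene for a secreted protein found in trophoblast, had 7.52, 8.10 and 8.38 in hypoxia, against 6.29, 5.88 and 5.36 in ambient. Every hypoxia array lay well above every ambient array. Plac1 rose 4.46-fold, by 2.16 (SE 0.27, adjusted p = 0.00796). Its call was kept without any 1 array, with rises between 1.92 and 2.40.

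Rhox9, an X-linked homeobox gene of mouse reproductive tissue and placenta, had a mean under the filter and is given from the fit of all 31042 probe sets, where 3.46% passed and 2.34% were called higher. It stood at 5.66, 6.13 and 6.16 in hypoxia and at 4.66, 4.999 and 4.69 in ambient. It lay above the bacterial controls on all 3 hypoxia arrays and on 1 of the 3 ambient arrays, replicate 2, so part of the difference is against background. In that fit Rhox9 was higher by 1.20 (SE 0.15, adjusted p = 0.00661). Its second probe set was above the bacterial controls on 2 of 3 hypoxia arrays and 0 of 3 ambient arrays, so no fold between the groups is given. Its hypoxia mean was 1.28-fold the mean of the brightest bacterial control on each ambient array. That hypoxia mean includes replicate 1, at 4.96, which lay under the brightest bacterial control of its own array, at 5.003.

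The promoters of Plac1, Rhox9 and Plet1 are shown because, among the genes called higher with an entry in the RefSeq promoter table of build GRCr8, these hold a TATA-like motif near the start. Rhox9 is included on its call in the fit of all probe sets. Each line gives the 250 bases before the start of transcription, 5' to 3' on the strand of the gene. Capitals mark that motif, spelled TATANA, within 80 bases of the start.
Plac1, chrX:137781801-137782050, minus strand: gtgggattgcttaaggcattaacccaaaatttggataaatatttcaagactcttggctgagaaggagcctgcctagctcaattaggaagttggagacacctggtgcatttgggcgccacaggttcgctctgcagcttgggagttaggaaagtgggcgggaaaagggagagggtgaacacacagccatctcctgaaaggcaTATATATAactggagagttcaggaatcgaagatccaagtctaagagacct
Rhox9, chrX:121510374-121510623, minus strand: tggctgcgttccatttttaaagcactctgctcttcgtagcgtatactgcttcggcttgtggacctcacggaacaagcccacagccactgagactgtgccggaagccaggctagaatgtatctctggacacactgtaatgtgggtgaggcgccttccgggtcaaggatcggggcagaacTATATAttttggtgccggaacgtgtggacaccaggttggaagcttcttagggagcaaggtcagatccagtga
Plet1, chr8:59738389-59738638, plus strand: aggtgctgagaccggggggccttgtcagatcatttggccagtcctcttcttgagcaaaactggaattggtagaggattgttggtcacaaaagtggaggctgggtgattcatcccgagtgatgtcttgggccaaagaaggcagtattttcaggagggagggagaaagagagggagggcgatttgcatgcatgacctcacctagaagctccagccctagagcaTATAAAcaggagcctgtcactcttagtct
The run began 50 bases before the start in Plac1, 72 in Rhox9 and 29 in Plet1. That window was set after these sequences were seen. TATANA on the strand of the gene occurred in the same window of 6 of 24 trophoblast promoters in the table and of 6.5% of all 33465 promoters. Of the genes that rose, Plac1, Plet1, Cdsn, Fgfr2 and Ets2 had a promoter entry. None of these 5 promoters held AGATAA (a form of the GATA site), GCCNNNGGC (AP-2), GGAATG (TEAD) or ACGTG (a form of the hypoxia response core) on either strand of the 250 bases, and 10.3%, 12.6%, 12.1% and 16.6% of all promoters did. Other forms of these sites were not searched. The promoters of Fgfr2 and Ets2 hold GCGTG, another form of the hypoxia response core. Over the 24 trophoblast promoters, 7 held GCCNNNGGC, 5 held ACGTG (Rhox9 among them) and 0 held AGATAA or GGAATG. Absence of these letters from a window says nothing about the factors.

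Gjb5, a connexin that forms gap junctions in mouse spongiotrophoblast, was at 8.17, 8.26 and 8.18 in hypoxia and at 7.65, 7.82 and 7.92 in ambient. The rise was 0.41 (SE 0.09, adjusted p = 0.0412), and the call was lost without any 1 array (adjusted p 0.0696 to 0.102). Tpbpa, the classic spongiotrophoblast marker, stood under the filter at 6.06, 5.50 and 5.99 in hypoxia, against 5.24, 5.42 and 4.95 in ambient. Each value was above the bacterial controls of its own array and the groups did not overlap. Tpbpa differed by 0.65 with an adjusted p without the filter of 0.0733.

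The pregnancy-specific and carcinoembryonic antigen genes, a family of placental glycoproteins, did not pass. Ceacam3 had 11.94, 11.72 and 12.12 in hypoxia, against 11.28, 10.36 and 9.20 in ambient. As for Ceacam9, ambient replicate 3 was the lowest array. The difference was 1.65 (SE 0.44, adjusted p = 0.0671), and 1.11 without ambient replicate 3. Without ambient replicate 1 it was 2.15 and passed (adjusted p = 0.0238). Psg19 stood at 6.94, 6.30 and 9.48 in hypoxia and at 6.19, 5.20 and 5.23 in ambient. As for Hand1, hypoxia replicate 3 carried the highest level and ambient replicate 1 the highest of its group. The difference of Psg19 was 2.03 (SE 0.73, adjusted p = 0.143), and 1.08 without hypoxia replicate 3. Psg16 lay at bacterial control level on all arrays but hypoxia replicate 3, so no fold is given for it.

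These 3 genes lie on chromosome 1, and their promoters are shown because the genes belong to 1 family, while 1 was bright, 1 dim and 1 near background. Capitals mark the longest run of bases that all 3 share, 18 bases.
Ceacam3, chr1:86991734-86991983, plus strand: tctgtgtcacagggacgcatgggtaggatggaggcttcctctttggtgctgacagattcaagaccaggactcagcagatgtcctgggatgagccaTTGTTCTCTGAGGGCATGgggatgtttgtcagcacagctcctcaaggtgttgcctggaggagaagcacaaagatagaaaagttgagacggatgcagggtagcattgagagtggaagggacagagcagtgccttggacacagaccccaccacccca
Psg16, chr1:86934125-86934374, plus strand: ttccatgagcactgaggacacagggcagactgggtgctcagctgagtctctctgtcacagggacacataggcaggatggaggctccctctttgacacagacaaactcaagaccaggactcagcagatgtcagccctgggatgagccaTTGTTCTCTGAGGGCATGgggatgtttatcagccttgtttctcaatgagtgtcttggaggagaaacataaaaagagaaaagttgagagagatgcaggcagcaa
Psg19, chr1:87559501-87559750, minus strand: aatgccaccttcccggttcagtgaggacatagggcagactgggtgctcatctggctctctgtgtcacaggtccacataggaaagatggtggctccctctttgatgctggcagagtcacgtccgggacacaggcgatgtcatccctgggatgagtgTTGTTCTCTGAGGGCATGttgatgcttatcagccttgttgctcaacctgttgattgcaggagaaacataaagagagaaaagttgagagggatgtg
The promoters of Psg16 and Psg19 were 76.9% identical over their 250 bases by global alignment, and those of Ceacam3 59.3% with Psg16 and 52.1% with Psg19. The median over the other 273 pairs of trophoblast promoters was 51.9%, and the highest was 62.5%, between Ctsj and Tpbpa. These pairs include those of a gene of the trio with a gene outside it. Ceacam9, of the same family and also on chromosome 1, was counted among them, and its promoter does not hold the shared run. Transcripts of this family and of the placental cathepsins are close paralogs, so probe sets may also bind relatives and the values of single genes are uncertain.

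Labyrinth genes were represented by 4 of 6 genes on the array, and 2 were tested, with 0 calls by limma and 2 at an unadjusted p under 0.05. Among all 18625 probe sets tested, 4422 were under that level. Ctsq, a placental cathepsin of rodents made by giant cells of the labyrinth, stood at 8.96, 8.82 and 9.50 in hypoxia, against 7.85, 7.88 and 6.00 in ambient. Ambient replicate 3 was again far under the rest of its group. The difference was 1.85 (SE 0.47, adjusted p = 0.0592), and without ambient replicate 3 it was 1.23 and passed (adjusted p = 0.0391). The RefSeq table lists a second gene, Ctsql1, under the synonym Ctsq, and a second Ctsq probe set lay at bacterial control level on every array. Dlx3, a homeobox factor of the mouse labyrinth, was at 6.30, 6.41 and 6.47 in hypoxia and at 6.91, 6.66 and 6.70 in ambient. The groups did not overlap, and the difference of -0.36 did not pass (adjusted p = 0.0703). Gcm1, the factor that starts syncytiotrophoblast formation in the mouse, and the cathepsin Ctsj did not exceed the bacterial controls on any array.

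Both adhesion genes rose, and both calls held with any 1 array left out. Cdh3, P-cadherin, an adhesion molecule first described in placenta, had 10.19, 10.23 and 10.39 in hypoxia, against 9.20, 9.05 and 9.07 in ambient. It rose 2.24-fold, by 1.16 (SE 0.08, adjusted p = 0.00162). Cdsn, corneodesmosin, best known as an adhesive protein of cornified skin, was at 11.19, 10.84 and 10.88 in hypoxia and at 9.77, 9.56 and 9.69 in ambient. It rose 2.45-fold, by 1.30 (SE 0.10, adjusted p = 0.00248). For both genes the gap between the groups was wider than the range within either group. Some epithelial markers moved the opposite way. Of 6 on the array, 3 were tested and 2, Cdh1 and Epcam, were called lower, by -1.07 (adjusted p = 0.049) and -1.77 (adjusted p = 0.0381). Cldn3 differed by -0.36 and did not pass (limma adjusted p = 0.0954), and Krt14, Krt5 and Muc1 lay under the filter. The summed signal of the 6 was 349 to 556 in hypoxia and 663 to 965 in ambient. Of the epithelial keratins listed here as trophoblast genes, Krt7 and Krt8 were called higher. Krt18 differed by 0.87 and Krt19 by -0.43, and neither passed (limma adjusted p = 0.0566 and 0.259).

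**Figure D4:**
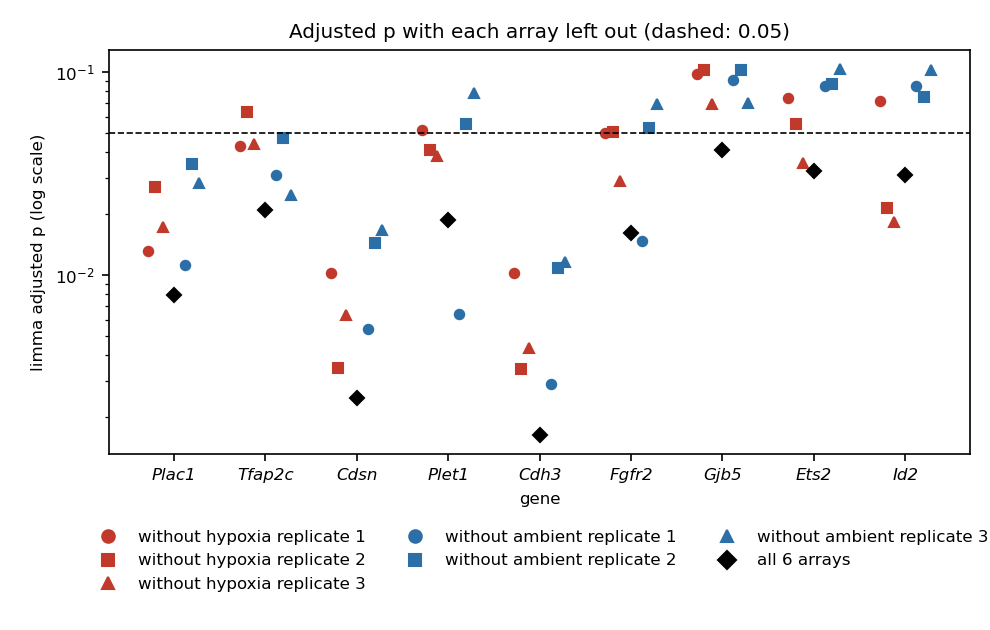
Adjusted p (y axis, log scale) of the 9 called trophoblast genes (x axis) with all 6 arrays, drawn as black diamonds, and with each array left out in turn, red for hypoxia and blue for ambient arrays; the dashed line is 0.05. Plac1, Cdsn and Cdh3 stay under the line throughout, while every point of Gjb5 but that of all 6 arrays lies above it.

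Many of the genes shared an order of the arrays within a group, while the width of the spread differed between genes. Ambient replicate 1 was the highest of its group for 17 of the 23 tested genes (73.9%), against 30.1% of all probe sets tested. Hypoxia replicate 3 was the highest of its group for 15 of 23 (65.2%), against 32.1%. Ceacam3, Ctsq and Ceacam9 had the widest ranges among ambient arrays, 2.08, 1.88 and 1.77, and ranges of 0.39, 0.67 and 0.48 among hypoxia arrays. Psg19 and Hand1 had the widest ranges among hypoxia arrays, 3.18 and 2.76. Of the 6 metrial gland trophoblast markers, Prl5a1, Prl7b1, Krt18 and Cdkn1c were, like Ceacam3 and Ceacam9, lowest of the ambient arrays on replicate 3, while Krt7 and Krt8 were lowest on replicate 2. Prl8a2, a decidual prolactin, stood at 13.66, 12.00 and 14.07 in hypoxia and at 11.78, 11.36 and 11.38 in ambient, with hypoxia replicate 3 the highest and hypoxia replicate 2 the lowest of their group, as for Hand1 and Psg19. The other decidual markers did not all follow that order: Bmp2 did, Des and Hand2 were highest on hypoxia replicate 2 and lowest on replicate 3, Wnt4 was highest on replicate 2 and Pgr on replicate 1. Decidual stroma markers, all 6 tested, had 2 called higher (Hand2 and Bmp2) and 0 lower, with sums of 20911 to 31735 in hypoxia and 15808 to 17692 in ambient. Bmp2 and Wnt4 had ambient means of 5.67 each, under the filter cutoff of 5.74, and were tested only because of their hypoxia values. The part of the decidual markers in these patterns was not tested.

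**Figure D5:**
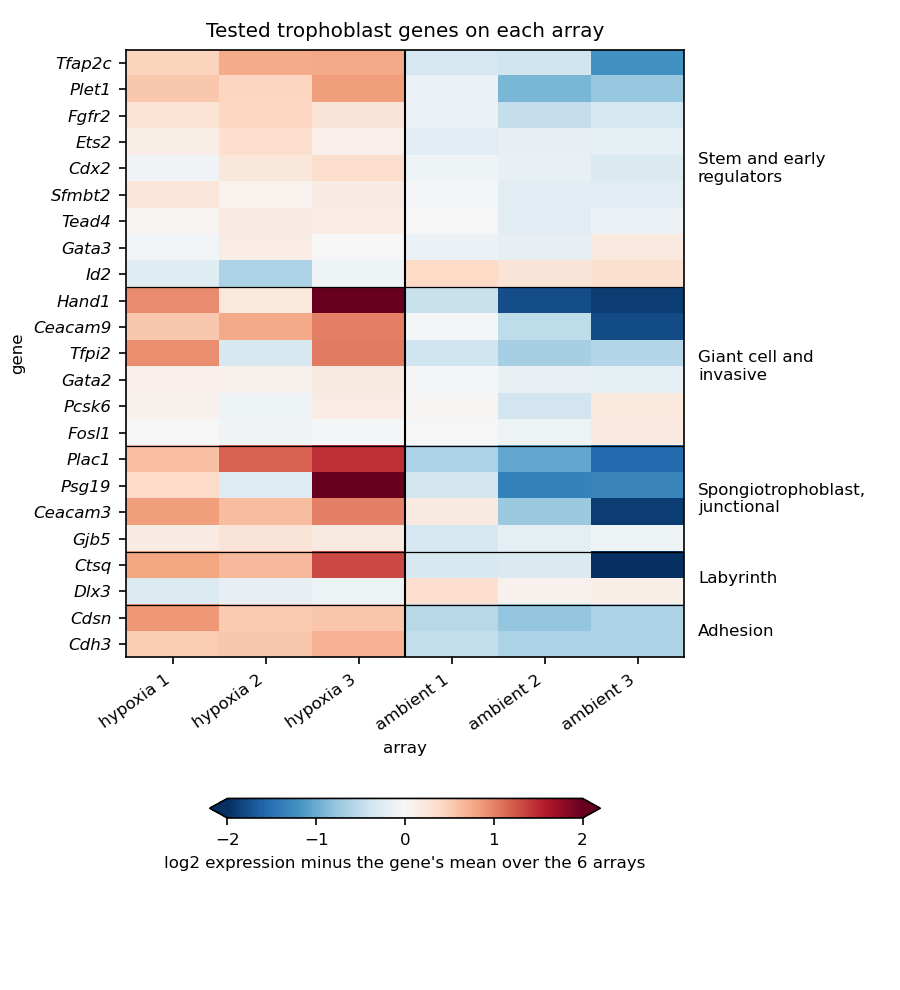
Log2 expression minus the mean of each gene over the 6 arrays (colour, clipped at 2 on both sides) for the 23 tested trophoblast genes (rows, by role) on the 3 hypoxia and 3 ambient arrays (columns). Hand1 and Psg19 are darkest red on hypoxia replicate 3, and Ceacam3, Ceacam9 and Ctsq are darkest blue on ambient replicate 3, together with Hand1.

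Other genes of the trophoblast lineage, 25 on a list that the 33 do not overlap, had 18 tested. Of these 8 rose, 1 fell and 9 did not pass, with a median difference of 0.43. Over all probe sets tested, 4.02% were called higher and 1.97% lower, with a median of 0.0034. Krt7, Krt8, Krt18 and Cdkn1c on this list are also metrial gland trophoblast markers counted above, so those results are not separate. Ascl2, a helix-loop-helix factor needed for mouse spongiotrophoblast, was at 6.72, 6.77 and 6.76 in hypoxia, against 6.29, 5.71 and 5.78 in ambient. It rose by 0.82 (adjusted p = 0.0242). Gjb2, a connexin of the rodent labyrinth, rose by 0.48 (adjusted p = 0.0337), and Slc16a3, a monocarboxylate transporter, by 0.49 (adjusted p = 0.0248). The other rises were those of Cdkn1c, Igf2, Krt7, Krt8 and Mmp12, and Eomes, a stem cell factor that natural killer cells also express, fell.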

How the data were processed

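The authors deposited a log2 level for each probe set on each array, a scale inferred from the range of the values. Per the submitters' processing notes, MAS5 and Affymetrix Expression Console were used, with no role or version; their background correction, summarization and scaling are not known here, and these steps set how far low signals are compressed. Of 31099 probe sets, 57 controls and then the 40% with the lowest mean over the 6 arrays (12417) were left out, which kept 18625. The platform table named 1 gene for 20826 of 31042 probe sets, several for 436 and none for 9780; the RefSeq table (GRCr8) held 20758 of the 20826 and changed 0. The comparison of hypoxia with ambient used limma 3.58.1 under R 4.3.3 (lmFit, eBayes with a mean-variance trend, group as the only term, two-sided). Adjusted p-values are Benjamini-Hochberg over all probe sets in the fit. A linear offset before log2 had been planned for linear values and was not needed. The fit was tested on simulated data. All 33 genes were to be accounted for, with values per array for those past the threshold; values per array of some others, such as Hand1 and Ceacam3, were added after their values were seen. The members and lists were chosen with earlier results of these data known. Alternatives were quantile normalization, other filters, no or a robust trend, an offset of 64, a replicate block, the mean of probe sets and each array left out. The number of arrays, 3 per group, limits the precision. No pair of arrays held identical values.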

Additional observations from a re-analysis of the deposited data

How the results depend on the processing

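With 1 array left out, the count over all probe sets lay between 267 and 1029 (1116 with all 6), that of trophoblast genes past the threshold between 4 and 8 (9 with all 6), of those higher between 4 and 8 (8) and of those lower between 0 and 1 (1). The 8 were 4 without ambient replicate 2 and 5 without hypoxia replicate 1, and the 1116 were 267 without ambient replicate 3, 344 without ambient replicate 2, 450 or 486 once hypoxia replicate 1 or hypoxia replicate 2 was dropped, and 536 when ambient replicate 1 was; fewer arrays were fitted. With the mean of probe sets 0 were lower (limma; Id2 at an adjusted p of 0.0525), and Gata3 changed sign at -0.036. The sign of Gata3 (-0.0068 to 0.17), Pcsk6 (-0.070 to 0.22) and Fosl1 (-0.13 to 0.016) also changed with 1 array left out, none of them called. Quantile normalization, no filter, no variance trend and a robust trend each gave 9 among the 23 tested trophoblast genes, and without the filter Rhox9 passed as well (adjusted p = 0.00661). The offset of 64 gave 10, adding Ctsq (adjusted p = 0.0417), and the 60% filter 7 of the 15 genes it kept, since Tfap2c and Plac1 were left out. The replicate numbers were not taken to pair the arrays, since deviations of same-numbered arrays correlated at 0.012, 0.071 and 0.070 and 2 of 3 hypoxia arrays and 1 of 3 ambient arrays correlated best with their own number. With the replicate block there were 1317 calls, and 12 trophoblast genes, with Hand1 (0.0411), Tfpi2 (0.0398) and Ceacam3 (0.0454) added. Of these added genes, Tfpi2 was tested only because of its hypoxia values. Genes near or under the bacterial controls (Elf5, Gcm1, Ctsj, Psg16, Tfap2a and, in ambient, Rhox9) are limited by signal over background.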
